A study of Homo sapiens with 6 samples.

Results

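The genes described here are the 10 that encode the NF-κB subunits (NFKB1, NFKB2, REL, RELA and RELB) and inhibitors and feedback regulators of the pathway (NFKBIA, NFKBIE, NFKBIZ, TNFAIP3 and BIRC3). They were taken by gene name from a table of 33900 genes, and each name matched 1 gene. The samples were LX-2 cells, a line established from human hepatic stellate cells, labelled wild type and kept in medium with serum. In 3 samples the cells received recombinant human Sema3C (rhSema3C) at 300 ng/ml for 48 h and in 3 control samples they received PBS for 48 h. LX-2 is a single line grown without other liver cells, so replicates measure the spread between samples of 1 line. The study reported enrichment of the NF-κB pathway in the treated cells by gene set enrichment analysis. It followed this with work on p65, the protein of RELA, with an NF-κB inhibitor and with knockdown of NRP1 and ITGB1. The comparison below asks what the RNA of the pathway's own components did.

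NF-κB is a family of dimeric transcription factors. In resting cells the dimers are held in the cytoplasm by IκB proteins, and on stimulation the IκB kinase (IKK) complex marks the IκB proteins for degradation, so that the dimers enter the nucleus. Several of the genes they switch on encode inhibitors of the pathway, which form feedback loops. In a second, non-canonical branch, the kinase NIK drives the processing of the NFKB2 precursor, which pairs with RELB. In stellate cells the pathway is known for the induction of cytokines and chemokines and for cell survival.

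The letters around the start sites of these genes are shown first, because most of the genes carry a sequence of the kind NF-κB dimers are known to bind (a κB site). RefSeq start-site windows (GRCh38.p14, from 250 bases before to 50 bases after a start) were matched by symbol for 8 of the 10 genes, and RELB and NFKBIE had none. The κB consensus, a motif of 10 letters, was searched on both strands, where its matches can overlap. It was found in 9 of the 13 windows of the members, which belong to 7 of the 8 genes, and in 11.3% of all 35116 windows. Motif and genes were chosen with the members' windows in view. A match describes the letters and is not evidence of binding.

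For the 4 inhibitor and feedback genes that were higher with rhSema3C, the stretch upstream of the transcripts is given, 5′ to 3′ on the gene's strand, with matches to the κB consensus in capitals. That of RELA, which was lower with rhSema3C, is given beside them and holds no match. This stretch lies before the farther of the start sites of RELA, outside the gene as the table gives it. Most windows of all genes hold no match, and NFKBIE, the other lower gene, had no window. Whether matches go with the direction of change was not tested.
NFKBIA, chr14:35404750-35404999, minus strand: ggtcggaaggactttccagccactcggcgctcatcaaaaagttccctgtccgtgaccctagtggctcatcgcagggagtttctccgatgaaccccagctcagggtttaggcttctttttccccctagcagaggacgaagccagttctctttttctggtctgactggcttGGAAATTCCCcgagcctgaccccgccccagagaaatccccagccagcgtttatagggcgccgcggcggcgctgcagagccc
TNFAIP3, chr6:137867009-137867213, plus strand: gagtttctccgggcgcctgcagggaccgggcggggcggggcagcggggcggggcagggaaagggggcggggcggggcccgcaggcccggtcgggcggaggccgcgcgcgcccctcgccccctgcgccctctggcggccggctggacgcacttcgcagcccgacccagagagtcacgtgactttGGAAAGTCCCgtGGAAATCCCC
BIRC3, chr11:102317234-102317449, plus strand: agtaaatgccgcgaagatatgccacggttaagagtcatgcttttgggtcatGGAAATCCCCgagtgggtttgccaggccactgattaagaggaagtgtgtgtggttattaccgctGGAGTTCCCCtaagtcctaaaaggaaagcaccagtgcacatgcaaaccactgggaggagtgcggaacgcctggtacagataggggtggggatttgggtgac
NFKBIZ, chr3:101827740-101827989, plus strand: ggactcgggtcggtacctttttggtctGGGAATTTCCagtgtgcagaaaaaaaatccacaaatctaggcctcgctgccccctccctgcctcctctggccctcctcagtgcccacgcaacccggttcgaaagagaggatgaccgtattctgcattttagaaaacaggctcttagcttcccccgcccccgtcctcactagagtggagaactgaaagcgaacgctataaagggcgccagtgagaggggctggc
RELA, chr11:65663858-65664107, minus strand: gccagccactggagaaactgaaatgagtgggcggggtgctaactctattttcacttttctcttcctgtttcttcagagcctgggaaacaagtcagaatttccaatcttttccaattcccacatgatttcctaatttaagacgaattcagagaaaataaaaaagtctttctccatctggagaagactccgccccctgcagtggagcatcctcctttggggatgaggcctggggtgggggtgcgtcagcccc

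For the subunit genes with a match, 30 bases around the match nearest to the start are enough to compare the letters. NFKB2 is shown for the second and the third of its 3 start sites.
NFKB1, chr4:102501300-102501329, plus strand: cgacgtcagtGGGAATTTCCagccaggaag
NFKB2, chr10:102394490-102394519, plus strand: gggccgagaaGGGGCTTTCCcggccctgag
NFKB2, chr10:102395674-102395703, plus strand: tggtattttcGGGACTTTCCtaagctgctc
REL, chr2:60881518-60881547, plus strand: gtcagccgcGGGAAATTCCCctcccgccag

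In NFKB1 the match began 49 bases before the start site, in NFKBIA 81 and in the first window of NFKBIZ 223. The second window of NFKBIZ had matches on both strands 239 bases before its start, which is not shown. TNFAIP3 had matches 67 and 55 bases before its start and BIRC3 199 and 135. REL had overlapping matches on both strands, 47 and 46 bases before its start. NFKB1, REL, NFKBIA and NFKBIZ shared the letters GGGAATTTCC on one strand or the other, which occurred in 0.145% of all windows. Those letters were read from the match in NFKBIA itself, so their share among all windows is no test of the members. The other window of NFKB1, the first of NFKB2 and both windows of RELA had no match.

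Total counts on genes lay between 68267808 and 89245585 in the PBS samples and between 80313774 and 88518639 in the rhSema3C samples, so depth overlapped between the groups. Counts were scaled by the TMM method and are given as CPM (counts scaled to a common library size). They were compared with edgeR's quasi-likelihood test over the 14178 genes whose mean FPKM was 0.5 or more, with Benjamini-Hochberg adjustment over all of them. The log2 fold change (log2FC) is given as rhSema3C minus PBS, with its standard error (SE). Of these genes 31.7% were higher and 30.6% lower in the treated samples (called at an adjusted p under 0.05), and in 67.8% the samples of the groups did not overlap. Calls on single genes were thus common in these data. In bulk RNA, fewer cells of a type and less RNA per cell cannot be told apart. The 7 stellate cell markers that passed the filter included COL1A1, COL3A1, VIM and ACTA2, while COL1A2, DES and LRAT lay below it. COL1A1 and ACTA2 had log2FCs of -0.78 and -0.56. The study reported the opposite direction by qRT-PCR, with both RNAs raised by rhSema3C in LX-2 cells, and the difference was not examined here. Of the 7 tested, 6 were called lower with rhSema3C and 0 higher, and PDGFRB was not called (log2FC 0.09). TAGLN had the lowest log2FC, -2.70 ± 0.06 (SE). These calls are from the TMM scaling only, and small falls can depend on the scaling. The summed FPKM of the 10 stellate markers was between 1315 and 1378 in PBS and between 1017 and 1081 with rhSema3C. Most of this sum was VIM, with a mean of 1035 FPKM in PBS and 834 with rhSema3C. Markers of leucocytes summed to between 94.6 and 103.4 FPKM in PBS and between 67.2 and 72.8 with rhSema3C, almost all of it CD68, and PTPRC and CD3E were near 0. Hepatocyte, endothelial and epithelial markers summed to at most 4.16, 1.67 and 3.88 FPKM in any sample. The part of these markers in the results was not tested.

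All 10 genes were called, 8 of them higher and 2 lower with rhSema3C, and in all 10 the samples of the groups did not overlap. The higher genes were NFKB1, NFKB2, REL, RELB, NFKBIA, NFKBIZ, TNFAIP3 and BIRC3, and the lower ones were RELA and NFKBIE. The median log2FC was 0.45 over the 10 genes and 0.02 over all genes tested. It was 0.29 among the 5 subunits and 0.88 among the 5 inhibitors and feedback genes. With a more than 2-fold difference and p under 0.05 before adjustment, which 3.42% of the genes tested passed upwards and 2.12% downwards, BIRC3 and NFKBIZ passed and the other 8 did not. All 10 genes passed the filter on low values. REL passed it only through the rhSema3C samples, since its mean in PBS was 0.415 FPKM, so its call supports nothing about the group of genes.

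**Figure D1:**
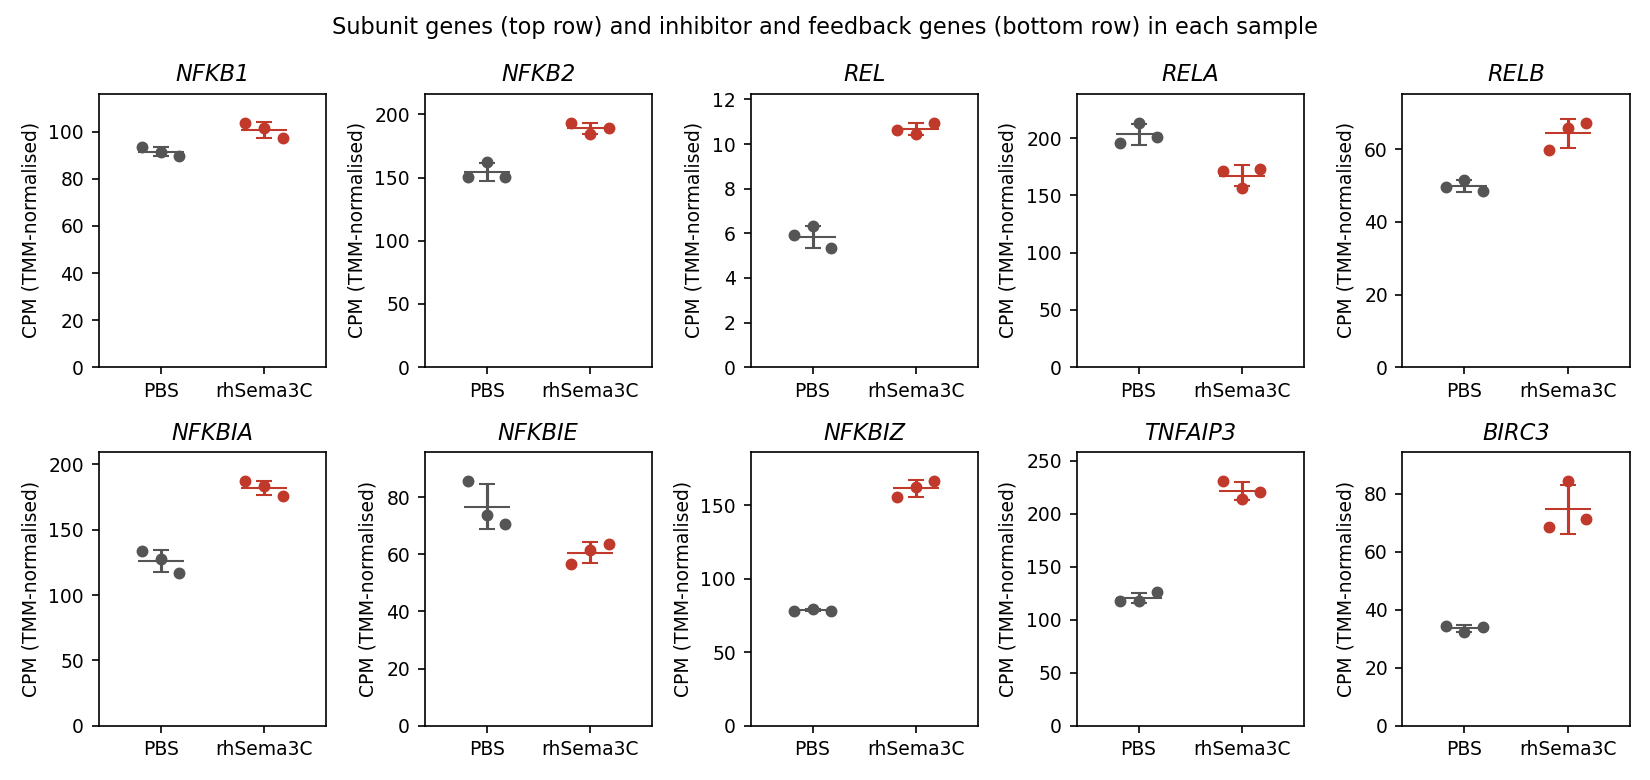
TMM-normalised CPM of the 10 genes in each of the 6 samples (points), with the group mean (horizontal bar) and SD (error bar, n = 3 per group); each panel starts at 0. In every panel the samples of the groups are separate, with RELA and NFKBIE lower and the other 8 genes higher with rhSema3C.

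Among the subunits, RELA (ENSG00000173039, chromosome 11 from 65653597 to 65663090, minus strand) encodes p65, which carries a transactivation domain and forms with p50 the dimer typical of the canonical pathway. Its CPM was 195.5, 213.3 and 201.2 in controls 1, 2 and 3, and 171.4, 156.4 and 173.1 in the treated samples. Every rhSema3C sample was below every PBS sample. The log2FC was -0.28 ± 0.05 (SE; 95% interval -0.40 to -0.17; edgeR, adjusted p = 0.00054). This is the transcript of the protein whose phosphorylation the study measured, and RNA does not report on phosphorylation.

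NFKB1 (ENSG00000109320, chromosome 4 from 102501331 to 102617302, plus strand) encodes the precursor p105, an IκB-like protein from which p50 is made. Its CPM was 93.6, 91.5 and 89.8 in the controls and 103.8, 101.5 and 97.2 in the treated samples. The groups were separate, but the gap between the highest PBS and the lowest rhSema3C sample was smaller than the range within either group. The log2FC was 0.14 ± 0.04 (SE; edgeR, adjusted p = 0.016), the smallest of the 10. NFKB1 was no longer called without PBS replicate 3 (adjusted p = 0.051), without rhSema3C replicate 1 (adjusted p = 0.065), or with all 33900 genes in the edgeR test (adjusted p = 0.084).

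NFKB2 (ENSG00000077150, chromosome 10 from 102394110 to 102402524, plus strand) encodes p100, which is both an inhibitor and the precursor of p52. It had 150.7, 162.2 and 150.2 CPM in the controls and 193.3, 184.4 and 189.0 in the treated samples. The log2FC was 0.29 ± 0.04 (SE; edgeR, adjusted p = 0.00016). RELB (ENSG00000104856, chromosome 19 from 45001449 to 45038198, plus strand), the usual partner of p52, rose beside it. RELB had 49.6, 51.6 and 48.6 CPM in PBS and 59.9, 66.0 and 67.3 with rhSema3C, a log2FC of 0.37 ± 0.06 (SE; edgeR, adjusted p = 2.0e-04). In both genes the lowest rhSema3C sample was above the highest PBS sample.

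REL (ENSG00000162924, chromosome 2 from 60881521 to 60931612, plus strand) encodes c-Rel, the subunit best known from lymphocytes. It was the scarcest of the 10 genes, with 505, 440 and 351 counts in the controls and 915, 955 and 912 in the treated samples. In CPM these were 5.90, 6.32 and 5.34 against 10.6, 10.4 and 10.9. The log2FC of 0.87 ± 0.11 (SE; 95% interval 0.62 to 1.11; edgeR, adjusted p = 4.8e-05) had the widest interval of the 10 genes. It was 0.85 (adjusted p = 3e-04) when all 33900 genes were tested without the filter that REL passed only through its treated samples. With limma on log2(FPKM + 1) it was 0.36, below the 0.44 of RELB and the 0.38 of NFKB2. The added 1 is large beside the FPKM of REL, and with log2(FPKM + 0.1) the value was 0.83. REL shares 5702 bases with AC010733, a gene on the same strand with between 34 and 131 counts, so part of its counts is uncertain.

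The inhibitor and feedback genes had larger changes than most subunits. BIRC3 (ENSG00000023445, chromosome 11 from 102317450 to 102339403, plus strand) encodes cIAP2, a ubiquitin ligase that acts beside the TNF receptors and limits NIK. It rose most, from 34.4, 32.3 and 33.9 CPM in the PBS replicates to 68.4, 84.2 and 71.1 in the treated samples. The log2FC was 1.15 ± 0.08 (SE; edgeR, adjusted p = 3.0e-07), a 2.22-fold difference. Replicate 2 stood above the other rhSema3C samples, and the coefficient of variation in that group, 11.3%, was the largest of any of the 10 genes. Without that sample the log2FC was 1.06. BIRC2, the neighbouring paralog that encodes cIAP1, had a log2FC of 0.33 ± 0.07 (SE; edgeR, adjusted p = 0.0011).

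NFKBIZ (ENSG00000144802, chromosome 3 from 101827991 to 101859523, plus strand) encodes IκBζ, an atypical nuclear IκB protein that acts as a cofactor at some secondary response genes. Its PBS replicates lay very close together, at 78.1, 79.2 and 78.03 CPM, and the rhSema3C replicates were 155.4, 162.3 and 166.1. With a log2FC of 1.04 ± 0.04 (SE; edgeR, adjusted p = 8.1e-09) it had the lowest p of the 10 genes and ranked 75 among all genes tested. NFKBIZ shares 241 bases with NXPE3 on the same strand, which had between 4941 and 6511 counts.

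TNFAIP3 (ENSG00000118503, chromosome 6 from 137867214 to 137883312, plus strand) encodes A20, a ubiquitin-editing enzyme that shuts off signalling upstream of IKK. It had 117.9, 117.6 and 125.9 CPM in PBS and 230.7, 213.6 and 220.4 with rhSema3C. The groups were far apart beside their spread, with a log2FC of 0.88 ± 0.05 (SE; edgeR, adjusted p = 5.5e-08). NFKBIA (ENSG00000100906, chromosome 14 from 35401513 to 35404749, minus strand) encodes IκBα, the inhibitor that is degraded and made anew in the classical feedback loop. It rose from 133.6, 127.7 and 116.8 CPM to 187.1, 183.2 and 176.2, a log2FC of 0.53 ± 0.05 (SE; edgeR, adjusted p = 5.7e-06).

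NFKBIE (ENSG00000146232, chromosome 6 from 44258166 to 44265788, minus strand), which encodes IκBε, a further cytoplasmic inhibitor, differed from the other inhibitors in direction. Its CPM was 85.5, 73.7 and 70.7 in the controls and 56.7, 61.3 and 63.7 in the treated samples. Its log2FC was -0.34 ± 0.07 (SE; edgeR, adjusted p = 0.0018). PBS replicate 1 was well above the other PBS samples, and without it the log2FC was -0.25. NFKBIE had the largest coefficient of variation in PBS of the 10 genes, 10.2%.

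The falls of RELA and NFKBIE were small enough to depend on how the samples were scaled. The FPKM columns summed to between 288169 and 297339 in PBS and between 265983 and 268533 with rhSema3C, and mitochondrial genes took between 4.75% and 5.42% of the counts in PBS and between 3.73% and 3.93% with rhSema3C. With library size alone, the median log2FC of all genes moved from 0.02 to 0.13, and with limma on FPKM rescaled to TPM it moved to 0.23. The share of higher genes among all calls was 50.9% with TMM, 62.3% with library size alone, 61.3% with limma on log2(FPKM + 1), 61.2% with log2(FPKM + 0.1) and 74.1% with TPM. RELA had a log2FC of -0.17 with library size alone and -0.06 with TPM (adjusted p = 0.41 from limma), and NFKBIE had -0.23 and -0.11 (adjusted p = 0.22 from limma). Relative to the median of all genes, RELA stood at -0.31, -0.31 and -0.28 with TMM, library size and TPM, and NFKBIE at -0.36, -0.36 and -0.33. Neither gene changed sign under these scalings, and the 8 higher genes were called under each of them.

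**Figure D2:**
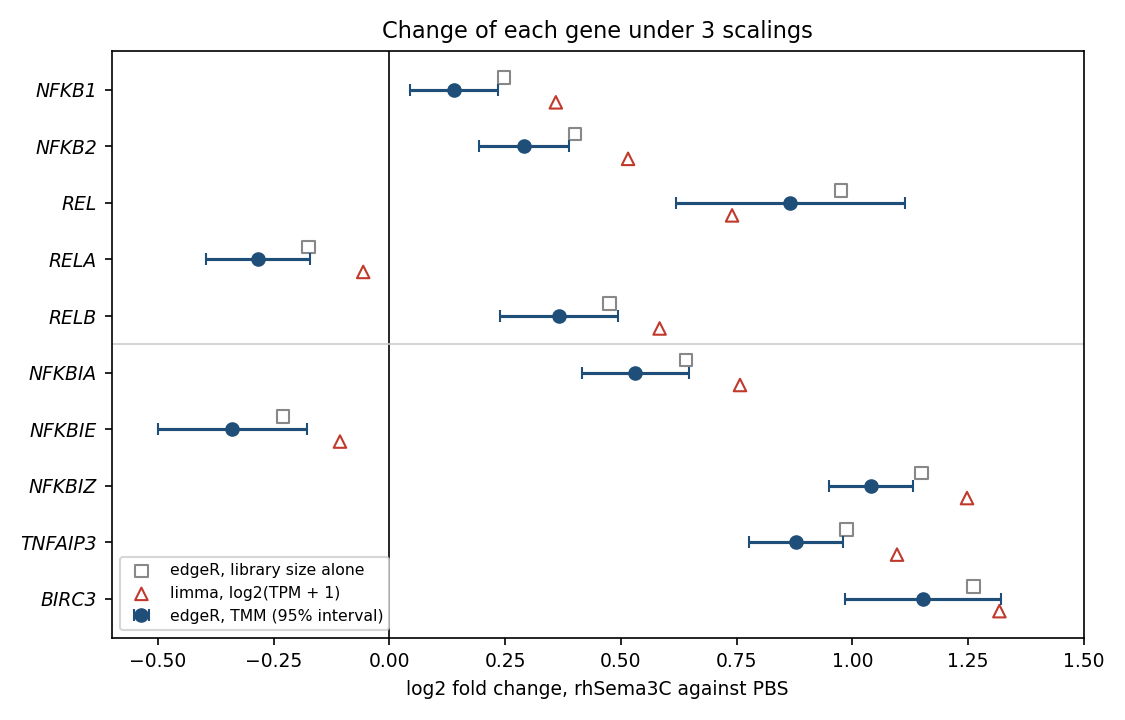
log2FC of each gene, rhSema3C against PBS: filled circles are the edgeR fit with TMM factors and its 95% interval (n = 3 per group), open squares the edgeR fit with library size alone, and open triangles limma on log2(TPM + 1). RELA and NFKBIE lie below 0 under all 3 scalings but come close to it with TPM (-0.06 and -0.11), where they were not called, and the other 8 genes lie above 0.

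Levels of different genes can be compared per length, in FPKM. In PBS the order was NFKBIA with 49.8 ± 3.30 FPKM, RELA with 34.9 ± 1.40, NFKB2 with 30.7 ± 1.18, NFKBIE with 27.8 ± 2.88, TNFAIP3 with 22.5 ± 0.970, RELB with 15.5 ± 0.401, NFKB1 with 13.5 ± 0.285, NFKBIZ with 12.5 ± 0.0368, BIRC3 with 4.18 ± 0.163 and REL with 0.415 ± 0.0329 (SD, n = 3). Only the samples of the neighbours NFKB2 and NFKBIE overlapped in this order. With rhSema3C, NFKBIA was again first, with 77.3 ± 2.13 FPKM, and TNFAIP3 followed with 44.4 ± 1.66 (SD, n = 3), above NFKB2 with 40.3 and RELA with 30.8. NFKBIZ, with 27.5 FPKM, was then above NFKBIE with 23.6 and RELB with 21.5, whose samples overlapped. NFKB1 with 16.0, BIRC3 with 9.99 and REL with 0.815 FPKM kept the lowest places. The lengths behind these FPKM values were close to those of all annotated exons of a gene merged, such as 5464 bases for RELA, whose longest transcript in GENCODE has 3183. With the longest transcript as the length, NFKB2 would have 57.1 FPKM with rhSema3C and RELA 54.2, both above TNFAIP3 with 48.3. The order of neighbours thus depended on the length used.

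**Figure D3:**
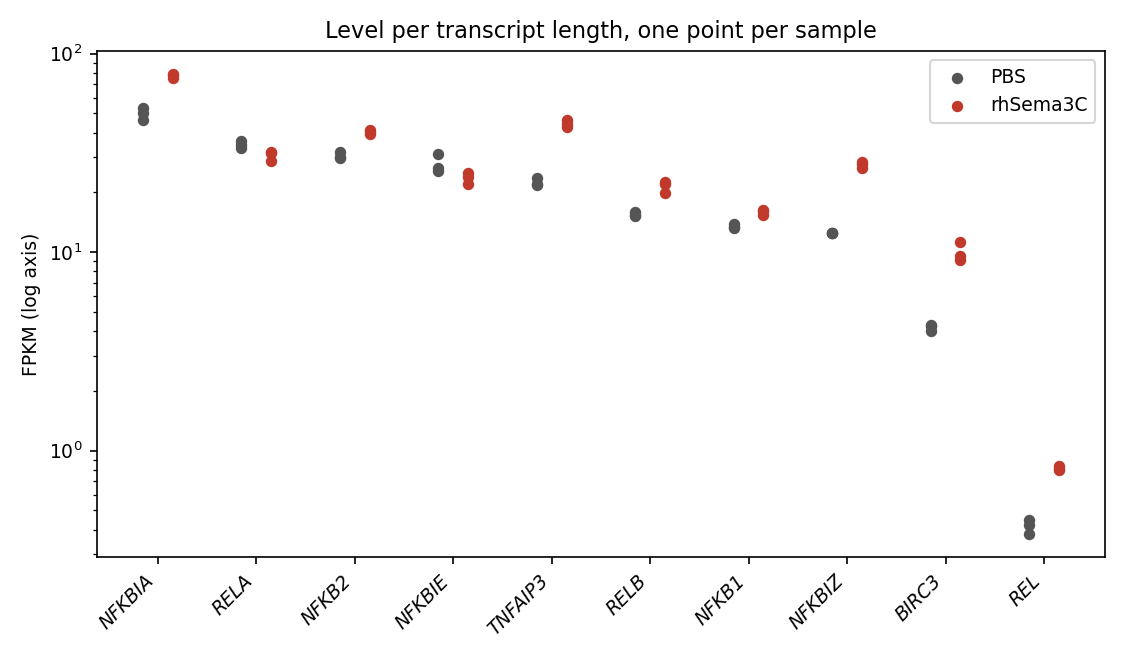
FPKM of the 10 genes in each sample on a log axis, ordered by the mean of the PBS samples (grey PBS, red rhSema3C). NFKBIA is highest in both groups (49.8 and 77.3 FPKM on average) and REL lowest (0.415 and 0.815).

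Within each sample, the 5 subunit genes were also compared as shares of their summed FPKM, which was 95.03 ± 2.78 in PBS and 109.4 ± 2.12 with rhSema3C (SD, n = 3 per group). RELA made up 36.0%, 37.0% and 37.1% of the sum in the controls and 28.7%, 26.9% and 28.8% in the treated samples. NFKB2 made up 32.2%, 32.6% and 32.1% in PBS and 37.5%, 36.8% and 36.4% with rhSema3C. By these FPKM values, RELA was thus the most abundant subunit transcript in every PBS sample and NFKB2 in every rhSema3C sample. The shares depend on the gene lengths used. With the longest transcript as the length, RELA led NFKB2 on average in PBS (61.2 against 43.3). With rhSema3C, NFKB2 was then only narrowly ahead (57.1 against 54.2). RELB went from 16.3% ± 0.196 to 19.7% ± 1.31, NFKB1 from 14.2% ± 0.584 to 14.6% ± 0.634 and REL from 0.437% ± 0.0261 to 0.745% ± 0.00880 (SD, n = 3 per group), and of these only the samples of NFKB1 overlapped between the groups.

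**Figure D4:**
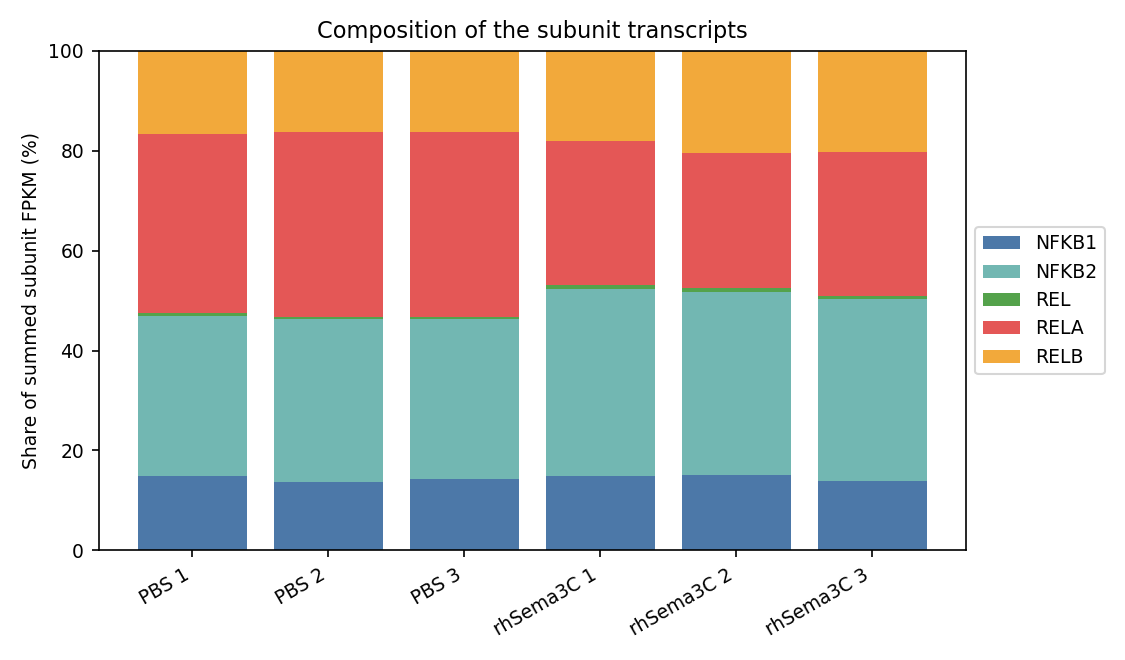
Share of each subunit gene in the summed FPKM of the 5 subunits, 1 bar per sample. The share of RELA is between 36.0% and 37.1% in the PBS samples and between 26.9% and 28.8% in the rhSema3C samples, while that of NFKB2 goes from about 32.3% to 36.9% on average.

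Ratios of a pair of genes within a sample do not depend on the scaling between samples. The ratio of NFKBIA to RELA in FPKM was 1.57, 1.38 and 1.34 in the controls and 2.51, 2.70 and 2.34 in the treated samples, a difference of 0.82 on the log2 scale. The ratio of RELB to RELA went from 0.445 ± 0.0128 to 0.700 ± 0.0656 and that of REL to RELA from 0.0119 ± 0.000823 to 0.0265 ± 0.00103 (SD, n = 3 per group). NFKB2 against NFKB1 changed least, from 2.27 ± 0.111 to 2.53 ± 0.0871, and BIRC3 against BIRC2 went from 0.306 ± 0.0141 to 0.541 ± 0.0202. For all 5 ratios the lowest treated sample exceeded the highest control sample, and the two-sided exact permutation test gave p = 0.1 for each, the smallest that 3 samples against 3 allow (p = 0.1 also after adjustment over the 5 ratios). A ratio shows that the genes of a pair changed unequally, and not which of them moved.

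The other components of the pathway moved in both directions. Of 60 genes in lists of other IκB genes, IKK and upstream kinases, adaptors and ligases, other negative regulators, receptors and ligands, 52 were tested, and 22 rose and 15 fell by the same call. Over all genes tested the shares were 31.7% higher and 30.6% lower. Among the other IκB genes, NFKBIB, which encodes IκBβ, fell with a log2FC of -0.63 ± 0.06 (SE), NFKBID rose by 0.27, and BCL3 was not called, with -0.16 (above 0 with TPM scaling). NFKBIB overlaps SIRT2 on the other strand, which had more counts.

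Among 11 kinase genes, 5 were higher and 2 lower, with a median log2FC of 0.04. MAP3K7, which encodes the kinase TAK1, and TAB3 and TAB2, which encode binding partners of it, rose with log2FCs of 0.49, 0.55 and 0.35. TAB1, a further binding partner, was not called, with -0.11 (above 0 with TPM scaling). MAP3K14, which encodes NIK, the kinase of the non-canonical branch, fell from 79.5, 92.95 and 83.8 CPM in the PBS replicates to 44.6, 41.8 and 44.7 in the treated samples. Its log2FC was -0.97 ± 0.06 (SE; edgeR, adjusted p = 2.6e-07), in the opposite direction from NFKB2 and RELB. IKBKE, which encodes an IKK-related kinase, fell with a log2FC of -0.79. IKBKB, a catalytic subunit of the IKK complex itself, was not called with TMM, at a log2FC of 0.04, but was called higher with library size alone (0.14, adjusted p = 0.011), with limma on log2(FPKM + 1) (0.12, adjusted p = 0.036) and with TPM (0.25, adjusted p = 0.0023). CHUK, the other catalytic subunit gene, rose by 0.21 with TMM.

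Of 13 adaptor and ligase genes, 6 were higher and 6 lower. The largest rises were those of TRAF5 with a log2FC of 0.68, RBCK1 with 0.46 and IRAK4 with 0.45. MYD88, the adaptor of the IL-1 receptor and most Toll-like receptors, fell from 62.2, 73.99 and 67.3 CPM in the controls to 38.8, 36.1 and 40.4 in the treated samples, with a log2FC of -0.82 ± 0.07 (SE; edgeR, adjusted p = 2.1e-06). TRADD, an adaptor of the TNF receptor, and SHARPIN, a part of the linear ubiquitin ligase to which RBCK1 also belongs, fell with -0.47 and -0.43. The call of TRADD was lost with TPM scaling (-0.24, adjusted p = 0.074 from limma), as was the lower call of TRAF2 (-0.08, adjusted p = 0.36 from limma). TRAF3 and IRAK1, called lower with TMM, were above 0 with TPM. IRAK1 was also not called with library size alone (-0.03, adjusted p = 0.52 from edgeR) or with limma on log2(FPKM + 1) (-0.04, adjusted p = 0.42).

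Of 13 other negative regulators, 5 were higher and 1 lower, with a median of -0.01. IRAK3, an IRAK protein that restrains MYD88 signalling, rose with a log2FC of 0.85 ± 0.09 (SE), and ITCH and TAX1BP1, which work with A20, with 0.64 and 0.63. NKIRAS2, which encodes a small GTPase that binds IκBβ, fell with -0.40. TNIP1 and TNIP2, partners of A20, were not called, with -0.08 and -0.10. Both were above 0 with library size alone (0.03 and 0.005), where neither was called (adjusted p = 0.56 and 0.95 from edgeR). They were also above 0 with TPM scaling, where TNIP1 was called higher (0.15, adjusted p = 0.017 from limma). SHARPIN and NKIRAS2 each overlap a gene on the other strand with more counts (MAF1 and DNAJC7), so their counts are uncertain if the counting ignored strand. ITCH overlaps DYNLRB1 on its own strand, which had more counts, so reads in the shared stretch could be split between them. TAX1BP1 overlaps JAZF1 on the other strand, with at most 1526 counts.

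Of 9 receptor genes tested, 3 were higher and 4 lower. TNFRSF1A, the main receptor for TNF, fell from 256.3, 258.8 and 245.8 CPM to 162.1, 157.1 and 159.3 (log2FC -0.67), while TNFRSF1B rose from 141.9, 151.7 and 137.0 to 190.1, 192.7 and 196.6 (log2FC 0.43). TNFRSF12A, the receptor for TWEAK, fell with a log2FC of -0.83, and TLR4 with -0.37, a call lost with TPM scaling (-0.12, adjusted p = 0.23 from limma). IL1RAP, the shared chain of the IL-1 receptor, rose with 1.01 ± 0.08 (SE; edgeR, adjusted p = 1.5e-06), and IL1R1 with 0.25. LTBR, called lower with TMM, was above 0 with TPM scaling. Its call was also lost with library size alone (-0.08, adjusted p = 0.1 from edgeR) and with limma on log2(FPKM + 1) (-0.09, adjusted p = 0.096).

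Of 10 ligand genes, 8 were listed and 3 tested. IL1B was at 926.1, 924.2 and 948.9 CPM in the controls and 1379, 1319 and 1338 in the treated samples, a log2FC of 0.53, and IL1A rose with 1.33. TNFSF12, the gene of TWEAK, fell with -0.33 and overlaps a readthrough gene on its own strand. Its call was lost with library size alone (-0.22, adjusted p = 0.085), with limma on log2(FPKM + 1) (-0.20, adjusted p = 0.1) and with TPM (-0.09, adjusted p = 0.43). TNF was nearly absent, with 10, 0 and 8 counts in the controls and 0 in each rhSema3C replicate, where a count of 0 allows up to 3 counts in a sample.

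In a list of 28 target genes, 12 were higher and 10 lower, with a median log2FC of 0.08. Over all genes tested the shares were 31.7% higher and 30.6% lower. With a more than 2-fold difference and p under 0.05 before adjustment, 8 targets were higher and 1 lower, against 3.42% and 2.12% of all genes tested. The list was chosen with earlier results of these data known. The largest rises were those of the chemokines CCL20 with 2.32, CXCL8 with 1.94 and CXCL2 with 1.83. PLAU, which encodes urokinase, fell with -1.29, the chemokine CCL2 with -0.78 and GADD45B, a stress response gene, with -0.59. Of the 10 lower genes, IER3, LIF and C3 were above 0 with TPM scaling, where IER3 was called higher (0.12, adjusted p = 0.021 from limma). Already with library size alone, IER3 (-0.002), LIF (-0.09) and C3 (-0.04) were not called (edgeR, adjusted p = 0.98, 0.14 and 0.47). They were not called with limma on log2(FPKM + 1) either. The lower call of IL32 (-0.30 with TMM) was lost with TPM (-0.07, adjusted p = 0.15 from limma).

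**Figure D5:**
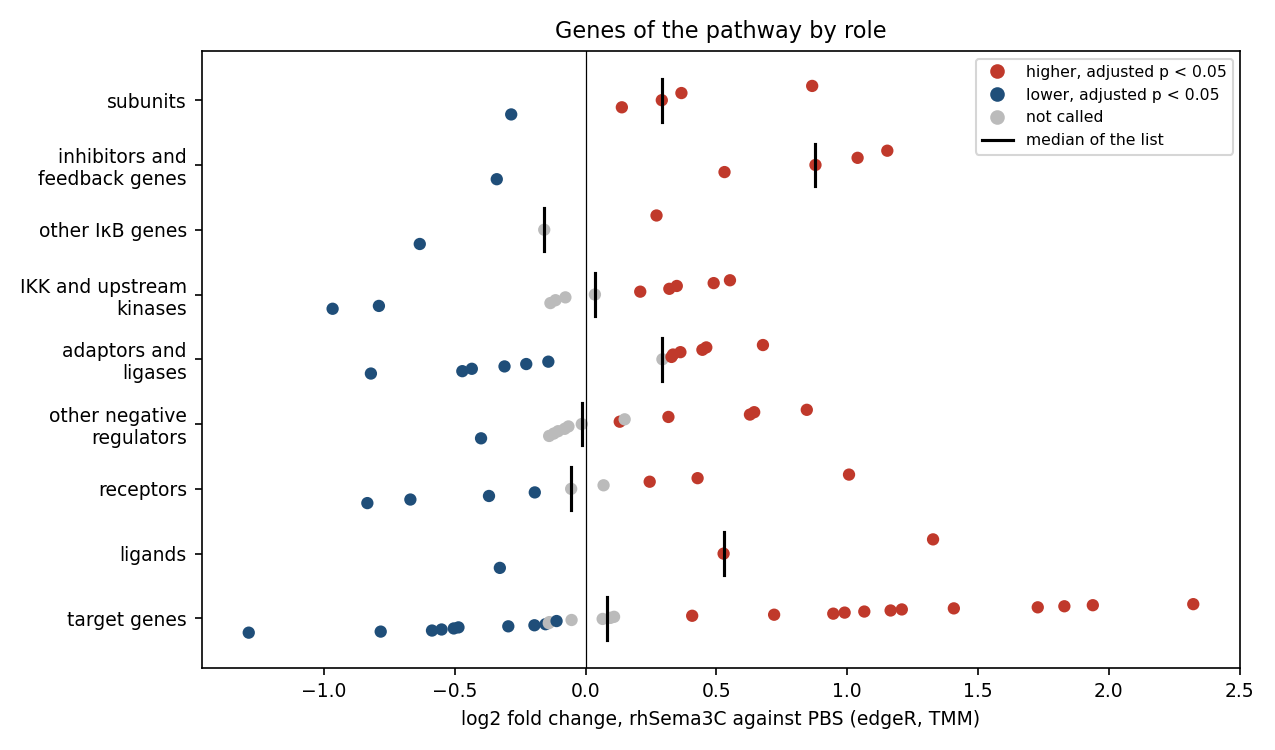
log2FC (edgeR with TMM factors) of every tested gene in 9 lists, 1 point per gene, red for higher and blue for lower at an adjusted p below 0.05 and grey for not called; black bars are medians. The medians are 0.29 for the subunits and 0.88 for the inhibitor and feedback genes. They lie between -0.16 and 0.53 for the other lists, which hold genes on both sides of 0. With TPM scaling the lower calls of TRAF3, IRAK1, LTBR, IER3, LIF and C3 turn above 0. Of these, only TRAF3 is still called lower with library size alone.

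The genes closest in profile to the 3 members with the largest changes were found by the Euclidean distance between centred log2(CPM + 0.5) values over the 6 samples, among the 11564 named genes whose mean FPKM was 1 or more. The closest to BIRC3 was RND3 at a distance of 0.08, followed by TCEA1 and SLC25A36 at 0.13 and 0.16. For NFKBIZ they were ZNF395 at 0.04, SLC38A1 at 0.08 and GSDMB at 0.08, and for TNFAIP3 they were FADS2, PAN2 and JARID2 at 0.09, 0.10 and 0.10. With 6 samples in 2 groups this mostly ranks genes by how far the groups lie apart.

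Each of RELA, TNFAIP3 and BIRC3 overlaps a gene on the other strand. RELA-DT shares 85 bases with RELA and had between 126 and 216 counts, WAKMAR2 shares 1020 bases with TNFAIP3 and had between 42 and 138, and AP000942 shares 11137 bases with BIRC3 and had between 13 and 48. These counts are small beside those of the members, which in the same samples were at least 13231 for RELA, 8195 for TNFAIP3 and 2228 for BIRC3. NFKB1, NFKB2, RELB, NFKBIA and NFKBIE overlap no other gene of the table.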

How the data were processed

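RNA of 3 rhSema3C-treated and 3 PBS-treated LX-2 samples was extracted with TRIzol and sequenced on an Illumina NovaSeq instrument, after library preparation with a SMARTER mRNA-seq kit per the labels. In the study's methods, differential expression came from Cufflinks with cuffmerge, at thresholds of 2 for the fold change and 0.05 for p. Which aligner, genome build, counting program and strand option were used is not given in the sources used here. What the authors deposited is 1 table with raw counts for each gene and FPKM, scaled by them to gene length and library size. No samples were pooled, and 0 columns of sample values were left unused. Of the 32887 genes also in GENCODE release 29, 99.3% had a start or end within 1000 bases of its GRCh38 position, so coordinates are given on GRCh38. Among genes with 1 transcript, the length implied by count, FPKM and total was a median of 1.02 to 1.03 times the annotated one.

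The sample labels gave the groups and the replicate numbers. No pair of replicates was as close as counting error alone would make it (chi-square over degrees of freedom from 12.6 to 20.4). The labels call them biological replicates without naming separate cultures, so p-values measure the spread between these samples. The counts were analysed in edgeR 4.0.16 (TMM factors, quasi-likelihood fit without covariates) on R 4.3.3 for the 14178 genes whose mean FPKM was 0.5 or more, and the test was tried on simulated counts. Standard errors were taken from the F statistic. Among the members, REL had the lowest counts, down to 351, and CCL20, with 151 in 1 PBS sample, had fewer. Alternatives were another scaling, another filter, DESeq2 1.42.0, limma 3.58.1 on log2 FPKM, a fit with the replicate number as a block and fits that each leave out 1 sample. Rescaling to TPM was added after the data were seen.

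The members and gene lists were chosen with earlier results of these data known. The genes named in the text are the 10 members, the 3 largest rises and falls among the called genes of each list, and the 3 nearest profiles of the 3 most changed members. BIRC2, CHUK, IKBKB, TAB1, BCL3, TNF, TNIP1, TNIP2, TRAF2, IL32, TAGLN, PDGFRB and the lower genes that turned above 0 with TPM were named after their values were seen. Start-site sequences came from RefSeq (GRCh38.p14), and the part of a window inside a transcript of the table was left out of the printed stretches over 30 bases. Figures were drawn with matplotlib 3.10.9.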

Additional observations from a re-analysis of the deposited data

How the results depend on the processing

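Over the 15 alternatives, 8 members were higher in all but 4, which gave 7, and 2 were lower in all but the TPM scaling. TPM, fitted by limma only, gave 0 lower (also 0 at an unadjusted p below 0.05), while DESeq2 on the counts gave 2. Of the 4, the filter at a mean FPKM of 5 did not test REL, and the test of all genes and the fits without PBS replicate 3 or without rhSema3C replicate 1 lost NFKB1. In the fits that each leave out 1 sample, log2FC ranged between -0.31 and -0.24 for RELA, between -0.39 and -0.25 for NFKBIE and between 1.06 and 1.21 for BIRC3. REL moved most with the pseudocount, to 0.36 with limma on log2(FPKM + 1). Neither the members nor the 5 ratios changed sign. Some pathway genes named above did with TPM, and TNIP1 and TNIP2 did so with library size alone as well. Among all genes, 4490 were higher and 4339 lower, against 2630 and 2602 with the filter at 5, which tests fewer genes, and 6934 and 2428 with TPM, for which the cause was not tested. The 5 ratios moved by less than the spread between replicates when samples were left out or counts took the place of FPKM.

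The replicate numbers did not pair the samples, since deviations of same-numbered samples correlated at -0.08, -0.05 and -0.04 and no sample correlated best with its own number. With the replicate block, 4221 genes were higher and 4120 lower, and the members again gave 8 and 2.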
